A study of Mus musculus with 24 samples.

Results

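Interferon-stimulated genes were read in cultures of mouse tracheal epithelial cells that had been exposed to cigarette smoke or to air. The members are 34 genes picked by symbol from a table of 25239 genes, and all 34 had a mean normalised count of at least 10, the level required for testing. Of these, 4 are sensors of foreign nucleic acid, 4 are transcription factors, 4 act in conjugation of Isg15 or ubiquitin, and 14 are effectors. The remaining 8 are 3 ADP-ribosyltransferases with the partner of one of them, 2 guanylate-binding proteins and 2 secreted proteins.

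The study holds 4 groups of 6 culture inserts, namely female smoke, female air, male smoke and male air. The donors in every group were wild-type FVB/NJ animals, 7 to 8 weeks old, and the labels name no transgene or drug. After expansion the cells spent 10 to 14 days with air above and medium below, a condition in which they differentiate, and then 10 days under cigarette smoke or humidified air. A single smoke exposure burned 2 cigarettes for about 8 minutes. The labels name no donor animals, so the p-values here measure only the spread between inserts, which may be technical, and a difference between the sexes cannot be told apart from a difference between cell preparations.

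Interferons are secreted alarm proteins. They bind receptors on the cell surface, and Janus kinases then phosphorylate Stat2, which together with Irf9 forms part of the factor ISGF3. ISGF3 enters the nucleus, binds a short DNA element called the interferon-stimulated response element (ISRE), and switches on genes that sense, block or degrade viruses. In the airway the epithelium is the first tissue that an inhaled virus meets.

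The core of the ISRE is a pair of GAAA repeats, searched here as GAAA, any 2 bases and GAAA again or, on the other strand, TTTC, any 2 bases and TTTC. RefSeq promoters of build GRCm38.p6, which run from 250 bases before to 50 bases after a gene's start, were at hand for 25 of the 34 members. The core was found in 12 of those 25 (48.0%), and in 3.99% of the 27025 mouse genes with a listed promoter. Matches of overlapping copies were joined into 1 run. The windows of the 7 members on which the results below turn are shown with 8 bases on each side, with the core runs in capitals.
Isg15, chr4:156200867-156200904, minus strand: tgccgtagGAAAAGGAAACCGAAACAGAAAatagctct
Ifit1, chr19:34640777-34640802, plus strand: ggcttcagTTTCACTTTCcagtctca
Ifit1, chr19:34640796-34640821, plus strand: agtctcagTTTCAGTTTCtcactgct
Ifit3, chr19:34583365-34583390, plus strand: gtggtaagTTTCACTTTCctcttctg
Ifit3, chr19:34583399-34583424, plus strand: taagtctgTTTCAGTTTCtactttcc
Rsad2, chr12:26456555-26456580, minus strand: ggtccaacTTTCATTTTCagaaaaca
Bst2, chr8:71537579-71537610, minus strand: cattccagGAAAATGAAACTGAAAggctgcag
Cxcl10, chr5:92349085-92349110, minus strand: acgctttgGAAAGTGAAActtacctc
Gbp2, chr3:142620596-142620621, plus strand: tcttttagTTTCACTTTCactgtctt
Ifit1 and Ifit3 each held 2 separate matches upstream of their starts, and in Isg15 the repeats ran together without a gap. The other members with a match were Ifih1, Eif2ak2, Stat2, Ifitm3 and Gbp3. A second element, the interferon-gamma activated site searched as TTCNNNGAA, was found in 6 of the 25 members, with overlap with an ISRE match allowed, and in 9.55% of all genes with a listed promoter. These matches describe letters in a window and no binding was measured.

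Within each group, inserts 1 to 3 stood apart from inserts 4 to 6 for part of the genes. The lowest value of one set of 3 lay above the highest of the other for 4 of the 34 members in female smoke, 13 in female air, 5 in male smoke and 19 in male air. Of the 13549 tested genes the shares were 16.3% in female smoke, 34.9% in female air, 33.2% in male smoke and 33.5% in male air. The summed counts of 4 club cell markers were 48454 to 70043 in male smoke inserts 1 to 3 and 117599 to 126275 in inserts 4 to 6, and in female air 182583 to 188019 and 115011 to 125222. The labels do not say what the numbers mark, and the part of this split in the results was read only from the values given beside them.

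In female cells 25 of the 34 members rose and none fell, where 15.5% of the 13549 tested genes rose and 19.3% fell (34.8% in either direction). The median member changed by 1.07 on the log2 scale, against -0.003 for the median of all tested genes. In male cells 17 members rose and none fell, where 9.76% of tested genes rose and 12.2% fell (22% in either direction), with a median change of 0.87 for the members and -0.006 for all genes. A gene is said to rise or fall where its Benjamini-Hochberg adjusted p over all tested genes was under 0.05 in limma's moderated test. The log2 fold changes are smoke over air on log2 of the normalised count plus 1, with their standard error (SE, n = 6 inserts per group). At an unadjusted p under 0.05, 27 members passed in female cells and 23 in male cells. At least the 34.8% and 22% of all genes that passed after adjustment also passed this looser threshold. In the authors' deposited DESeq2 results 23 members were higher in female cells and 29 in male cells. Of their genes 11.9% and 21.9% were higher. The larger female count thus holds for the fit of all 4 groups here and not in those results. With separate means for inserts 1 to 3 and 4 to 6 in each group, a choice made after seeing the data, 26 members rose in female cells and 19 in male cells, where 18.2% and 13.0% of all genes rose. In inserts 1 to 3 alone 10 rose in female cells and 11 in male cells, where 2.83% and 7.79% of all genes did. In inserts 4 to 6 alone 15 rose in female cells and 2 in male cells, where 22.1% and 3.30% did, so the male share there was near the background. The median changes of the members were 1.11 in female cells and 0.87 in male cells for inserts 1 to 3, and 1.13 and 0.81 for inserts 4 to 6.

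The members that passed in both sexes were 15 of the 25 female calls and 15 of the 17 male calls. They are Zbp1, Eif2ak2, Irf7, Irf9, Stat2, Isg15, Usp18, Ifit3, Rsad2, Mx1, Mx2, Xaf1, Rtp4, Gbp3 and Cxcl10. A further 10 passed in female cells alone and 2, Ifi27 and Gbp2, in male cells alone. Of those 12, the difference between the sexes was itself past the threshold for Ifit1. In the authors' deposited DESeq2 results for male cells, all of the 10 but Ifit1 and Ifit2 were also higher under smoke. The adjusted p of those higher ran from 3.42e-08 (Trim25) to 0.0456 (Parp9), where 21.9% of all genes were higher. The list of members that passed in female cells alone is thus that of limma's test here. The 7 that passed in neither sex were Ifih1, Irf1, Cmpk2, Bst2, Ifitm3, Ifi35 and Lgals3bp.

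**Figure D1:**
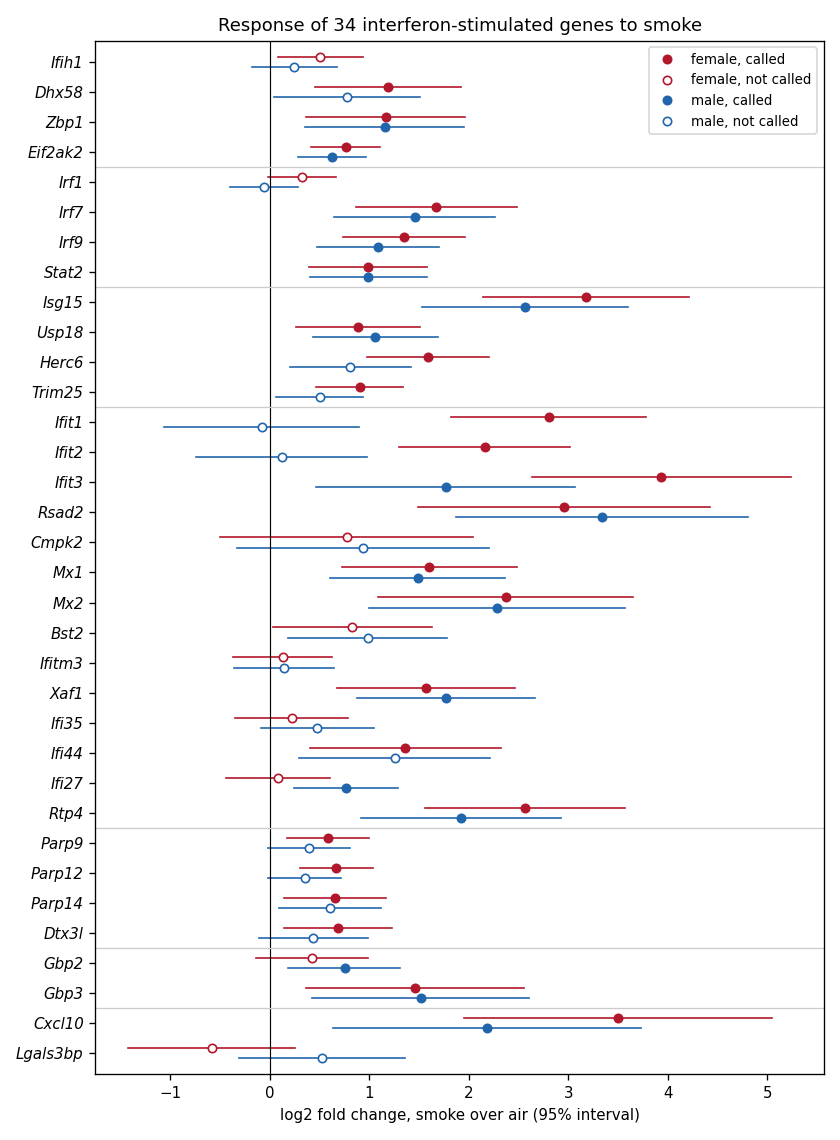
Log2 fold change of smoke over air for the 34 members, in female cells (red, upper of each pair) and male cells (blue, lower), with the 95% interval of the limma fit and grey lines between roles. Filled points passed an adjusted p of 0.05; they number 25 in female cells and 17 in male cells, and all lie right of 0.

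Spread between inserts was wide under smoke. For most members at least 1 smoke insert did not exceed the highest air insert. Only 5 of the 34 members in female cells, and 8 in male cells, had every smoke insert above every air insert, where 6.73% of all tested genes did so in female cells and 11.0% in male cells. No member lay wholly below, as 5.75% of all genes did in female cells and 14.2% in male cells. Those 5 in female cells were Isg15, Herc6, Ifit1, Ifit2 and Ifit3. In male cells they were Eif2ak2, Stat2, Isg15, Trim25, Rsad2, Mx1, Xaf1 and Ifi27.

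The same inserts stood out for gene after gene. Female smoke insert 5 held the highest value of its group for 24 members, and female smoke insert 4 the lowest for 28. Among male smoke inserts, insert 3 was highest for 17 and insert 5 for 13, while insert 2 was lowest for 27. In male air, insert 6 was highest for 23 and insert 3 lowest for 21. How often these inserts were highest or lowest over all tested genes is not given here, so this cannot be called particular to the members. Each member was also correlated with the mean of the other members over the 6 inserts of a group, on the log2 scale. Its median Pearson r was 0.895 in female smoke, 0.186 in female air, 0.899 in male smoke and 0.811 in male air. These describe 6 libraries per group that share their depth and scaling, and carry no test. The same values for other genes are not given here. The value was over 0.8 for 25 members in female smoke, 3 in female air, 25 in male smoke and 17 in male air. Without female air insert 1 the female air median was 0.525 over 5 inserts.

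**Figure D2:**
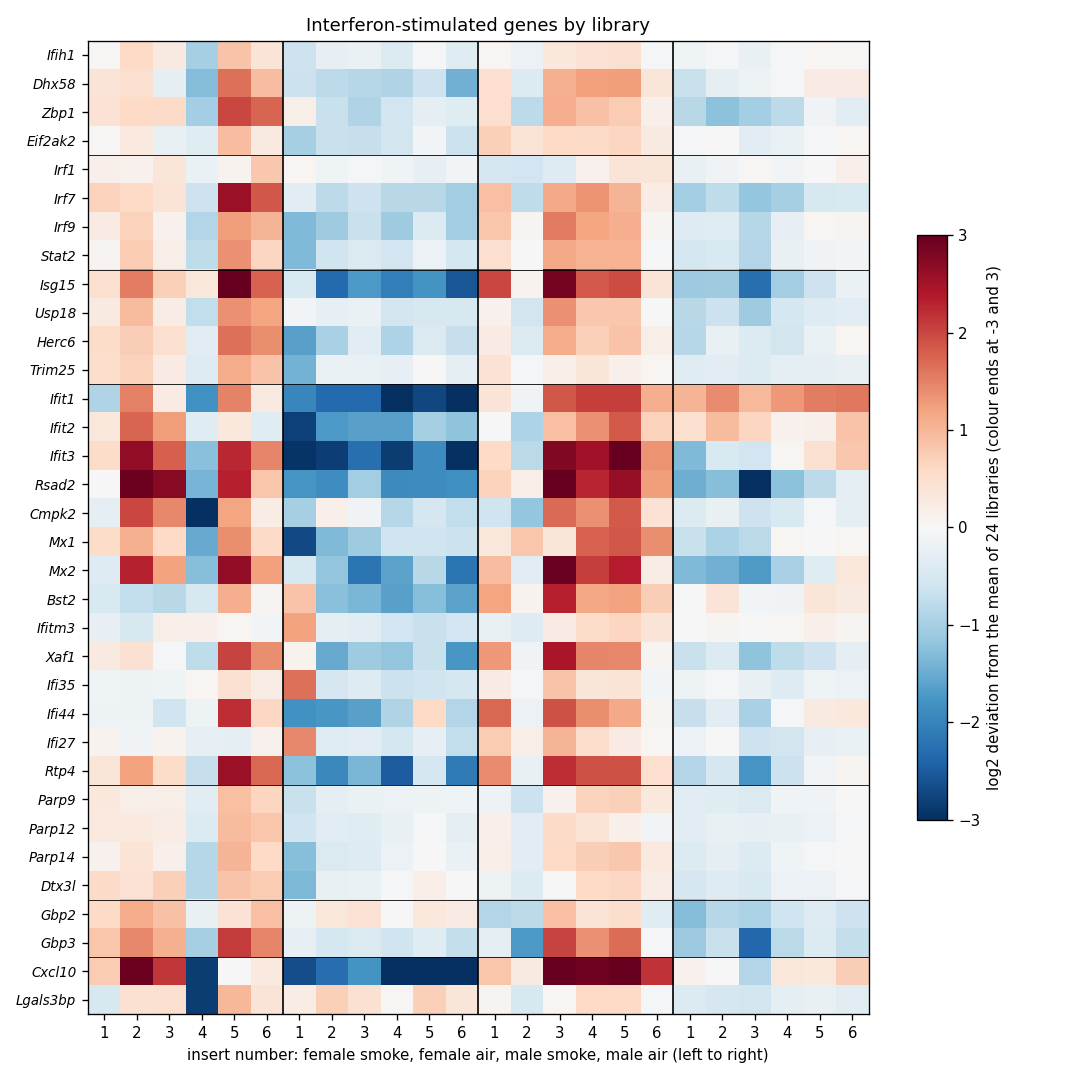
Log2 deviation of each member (rows, grouped by role) from its own mean over 24 libraries, for female smoke, female air, male smoke and male air inserts 1 to 6. Female smoke insert 4 and male smoke insert 2 are pale or blue down most rows, and female smoke insert 5 and male smoke inserts 3, 4 and 5 are red.

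A pair of libraries also differed from their groups by transcript length. In female air insert 1 the log2 deviation from the median of its group fell with length over 13545 genes (Spearman rho = -0.67), and over the 34 members (rho = -0.807). In female smoke insert 4 the values were -0.432 over all genes and -0.075 over the members. Female air insert 1 was thus high for the shortest members. Without both libraries, 31 members rose in female cells and 27 in male cells, with a median of 1.31 in female cells and 0.87 in male cells. Of all tested genes 21.9% rose there in female cells and 22.5% in male cells. No male library was left out there, so the male values themselves were the same and only the shared estimate of spread changed. Without female smoke insert 5 the female count was 18, where 13.5% of all genes rose. The male count was 11 without male smoke insert 3 and without male air insert 3 or 4, where 7.53%, 7.14% and 8.83% rose. It was 19 without male smoke inserts 1 and 2 together, where 5.42% rose. The part of length in the results was not tested beyond this.

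**Figure D3:**
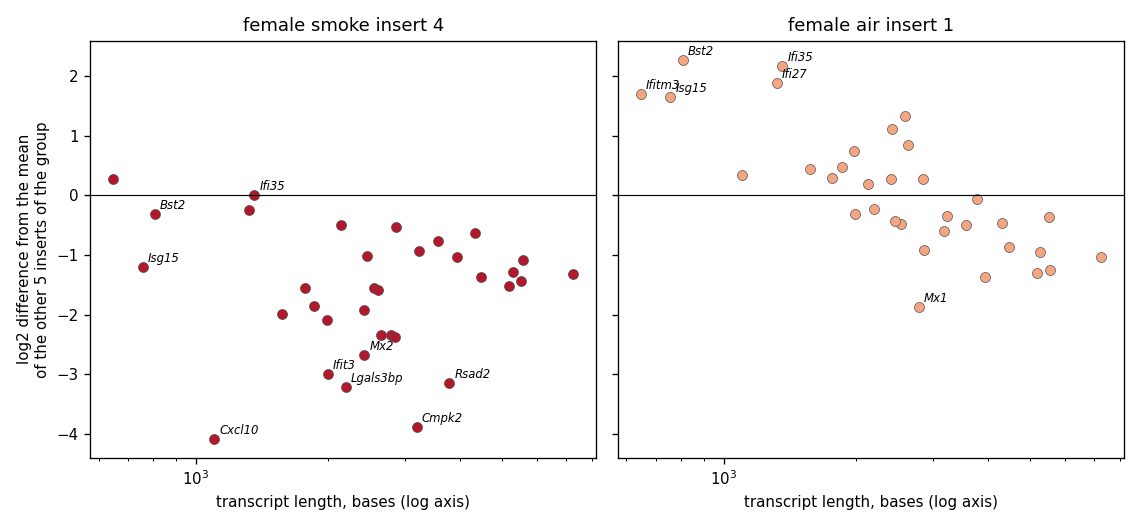
Log2 difference of each member from the mean of the other 5 inserts of its group, against transcript length in bases (log axis), for female smoke insert 4 and female air insert 1. In female air insert 1 the short genes Bst2, Ifi35, Ifi27, Ifitm3 and Isg15 lie above 1 and the members longer than Gbp3 lie below 0. In female smoke insert 4 all members but Ifitm3 and Ifi35 lie below 0.

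Of the 4 sensors, 3 rose in female cells and 2 in male cells. Dhx58, also called LGP2, helps the RIG-I-like receptors recognise viral RNA. It had a lowest, median and highest normalised count of 79.1, 264 and 613 in female smoke inserts, against 71.3, 110 and 126 in female air inserts. In male smoke inserts it had 147, 342 and 468, against 123, 182 and 232 in male air inserts. The groups overlapped in both sexes through their lowest smoke inserts. Its log2 fold change was 1.19 ± 0.35 in female cells (limma adjusted p = 0.0116) and 0.78 ± 0.35 in male cells (adjusted p = 0.118), so it passed in female cells.

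Zbp1 binds the left-handed Z form of nucleic acids and can start cell death. Its counts were 70.7, 218 and 585 in female smoke, against 76.4, 104 and 164 in female air. Male smoke inserts had 84.0, 225 and 311, against 61.2, 82.0 and 133 in male air. It rose by 1.16 ± 0.38 in each sex (limma adjusted p = 0.0216 in female and 0.0327 in male cells), although 1 female smoke insert lay below all female air inserts.

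Eif2ak2 encodes the kinase PKR, which halts translation when it binds double-stranded RNA. It had 668, 959 and 1636 in female smoke, against 434, 545 and 811 in female air. In male smoke the counts were 1043, 1292 and 1403, above every male air insert at 687, 827 and 902. The log2 fold change was 0.76 ± 0.17 in female cells (limma adjusted p = 0.00138) and 0.63 ± 0.17 in male cells (adjusted p = 0.00908). Ifih1, the sensor MDA5 for long double-stranded RNA, had changes of 0.50 and 0.24 that did not pass in either sex. It passed in female cells at 0.68 without the 2 libraries with a length trend (adjusted p = 5.87e-04).

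Among the transcription factors, Irf7, Irf9 and Stat2 rose in both sexes, and Irf1 passed in neither. Irf7, the factor that amplifies interferon production, had the widest range of the members of this role. It ran at 518, 1252 and 4783 in female smoke, against 383, 452 and 625.3 in female air, and at 470, 1546 and 2024 in male smoke, against 356, 434 and 576 in male air. Female smoke inserts 5 and 6 lay far above the rest at 4783 and 2876.5, and the lowest smoke insert of each sex lay within the air range. The log2 fold change was 1.67 ± 0.39 in female cells (limma adjusted p = 0.00229) and 1.46 ± 0.39 in male cells (adjusted p = 0.00946).

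Irf9, the DNA-binding subunit of ISGF3, had 400, 1040 and 1759 in female smoke, against 292, 355 and 553 in female air. Male smoke gave 777, 1446 and 2155, against 406, 599 and 782 in male air. Its rise was 1.35 ± 0.30 in female cells (limma adjusted p = 0.00154) and 1.09 ± 0.30 in male cells (adjusted p = 0.0108). Stat2, the partner of Irf9, rose by 0.98 and 0.99 in female and male cells. Irf1, a factor that interferon-gamma also switches on, changed by 0.32 in female cells and by -0.06 in male cells, where it was 1 of 2 members with a negative value.

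All 4 conjugation genes rose in female cells, and 2, Isg15 and Usp18, rose in male cells. Isg15 encodes a small ubiquitin-like protein that is attached to other proteins during a viral infection. Its counts were 268, 481 and 2017 in female smoke, against 34.6, 54.6 and 154 in female air. Every female smoke insert lay above every female air insert, also above female air insert 1, which was the highest at 154 where the next was 63.7. In male smoke they were 226, 784 and 1545, against 43.1, 102 and 185 in male air, again with no overlap. The log2 fold change was 3.18 ± 0.50 in female cells (limma adjusted p = 8.65e-05) and 2.56 ± 0.50 in male cells (adjusted p = 8.47e-04).

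Herc6, the main enzyme in the mouse that joins Isg15 to its targets, had 156, 306 and 614 in female smoke, above all female air inserts at 62.4, 111 and 153. In male smoke it had 144, 274 and 418, against 107, 156 and 202 in male air, and the groups overlapped. The change was 1.59 ± 0.29 in female cells (limma adjusted p = 3.79e-04) and 0.81 ± 0.29 in male cells (adjusted p = 0.0502). The difference of the 2 responses, 0.78 ± 0.41, did not pass (adjusted p = 0.444). Usp18, which takes Isg15 off proteins and dampens the interferon receptor, rose by 0.89 in female and 1.06 in male cells. Trim25, a ubiquitin ligase of the RIG-I pathway, rose by 0.90 in female cells and had a change of 0.50 in male cells that did not pass, with no overlap between the male groups.

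Of the 14 effectors, 9 rose in female cells and 7 in male cells. The 2 with the largest changes were Ifit3 in female cells and Rsad2 in male cells. Ifit3 is a relative of Ifit1. It had 11.99, 96.0 and 194 in female smoke, against 2.04, 3.34 and 7.41 in female air, with no overlap. Male smoke inserts had 16.6, 127 and 279, against 11.4, 26.5 and 53.3 in male air, and these overlapped. It rose by 3.93 ± 0.62 in female cells (limma adjusted p = 9.68e-05) and by 1.77 ± 0.62 in male cells (adjusted p = 0.0443). The male call was lost in 13 of 24 fits that left out 1 library.

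Rsad2, or viperin, makes a nucleotide that stops viral polymerases. It had 23.97, 221 and 500.4 in female smoke, against 16.3, 17.2 and 30.9 in female air, where only female smoke insert 4 fell inside the air range. In male smoke the counts were 73.7, 236 and 1384, all above the male air counts of 4.42, 26.4 and 53.3. The log2 fold change was 2.95 ± 0.70 in female cells (limma adjusted p = 0.00279) and 3.34 ± 0.70 in male cells (adjusted p = 0.00170). Cmpk2, a nucleotide kinase beside Rsad2 on chromosome 12, had changes of 0.77 and 0.94 that did not pass. Its female smoke values ran as low as 13.2, in insert 4, below all female air inserts, and without that insert the change was 1.42 (adjusted p = 0.0220).

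The other effectors that rose in both sexes were the antiviral GTPases Mx1 (1.602 in female and 1.486 in male cells) and Mx2 (2.37 and 2.28), the apoptosis factor Xaf1 (1.57 and 1.77) and Rtp4 (2.56 and 1.92). Ifi44 rose in female cells by 1.36 and had a male change of 1.26 that did not pass (adjusted p = 0.0533). Ifi27, an interferon-induced mitochondrial protein, had a female change of 0.08 that did not pass, and rose in male cells by 0.77. Its highest female air value, 3632 in insert 1, was more than the highest female smoke value of 1449, and without that insert the female change was 0.40 and passed (adjusted p = 0.0350). Bst2, or tetherin, which holds budding virus at the cell surface, and Ifi35 and Ifitm3 were also highest in female air insert 1. Without that insert all 3 passed in female cells, at 1.21, 0.58 and 0.41, where 21.6% of all genes rose against 15.5% with it. Some other fits turned the sign without passing. With edgeR on recovered reads Ifitm3 had -0.069, Ifi35 -0.105 and Ifi27 -0.173. Bst2 had -0.082 in inserts 1 to 3 alone.

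The 3 ADP-ribosyltransferases and Dtx3l rose in female cells by a narrow range of 0.58 to 0.68, and none passed in male cells, where their changes ran from 0.35 to 0.60. In the authors' deposited DESeq2 results all 4 were higher in male smoke, with adjusted p from 8.58e-04 (Parp14) to 0.0456 (Parp9). Parp14 and Dtx3l did not pass there in female cells (DESeq2 adjusted p = 0.0518 and 0.0624). Parp9 and the ubiquitin ligase Dtx3l form a complex that strengthens interferon signalling. Dtx3l had 851, 2404 and 2801 in female smoke, against 603, 1424 and 1756 in female air, and 1154, 1676 and 2357 in male smoke, against 1088, 1274 and 1482 in male air. Groups overlapped in both sexes, and the lowest female smoke value was again insert 4. The log2 fold change was 0.68 ± 0.26 in female cells (limma adjusted p = 0.0454), which was lost in 15 of 24 fits without 1 library, and 0.44 ± 0.26 in male cells (adjusted p = 0.243). Parp12, which attaches single ADP-ribose units, had a female rise of 0.67 ± 0.18 (limma adjusted p = 0.00532) that no single library decided. None of the 4 differences between the responses passed, and they ran from 0.05 to 0.32.

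The guanylate-binding proteins are GTPases that attack the vacuoles of intracellular microbes. Gbp3 rose in both sexes, by 1.46 ± 0.52 in female cells (limma adjusted p = 0.0335) and 1.52 ± 0.52 in male cells (adjusted p = 0.0403). Its counts were 38.4, 188 and 334 in female smoke, against 46.9, 55.3 and 65.4 in female air, and 22.98, 138 and 320.4 in male smoke, against 14.4, 45.3 and 58.3 in male air. The lowest female smoke insert lay below all female air inserts, and the lowest male one within the male air range. Gbp2 had a female change of 0.42 that did not pass and rose in male cells by 0.75 ± 0.27 (limma adjusted p = 0.0486), a call lost in 17 of 24 fits without 1 library.

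Of the 2 secreted proteins, Cxcl10, a chemokine that draws activated T cells, had few reads. It had 1.20, 22.2 and 122 in female smoke, against 0, 1.27 and 3.64 in female air, and 18.2, 95.1 and 221 in male smoke, against 7.73, 17.8 and 25.6 in male air. All female smoke inserts but insert 4 lay above all female air inserts. The log2 fold change was 3.50 ± 0.74 in female cells (limma adjusted p = 0.00120) and 2.18 ± 0.74 in male cells (adjusted p = 0.0374). At such counts its size depends on the pseudocount, and the female value was 3.93 with 0.5 and 2.29 with 5. The male call was lost with a pseudocount of 0.5, with no filter and with insert number as a block. It was also lost in inserts 1 to 3 alone, in inserts 4 to 6 alone and in 9 of 24 fits without 1 library. The female call held in all of these. Lgals3bp, a galectin-binding glycoprotein, was the only member with a negative change in female cells, at -0.58 ± 0.40, which did not pass (limma adjusted p = 0.278). Its female smoke insert 4 stood at 277, where the other inserts ran from 1430 to 4006, and without that insert the change was -0.05.

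**Figure D4:**
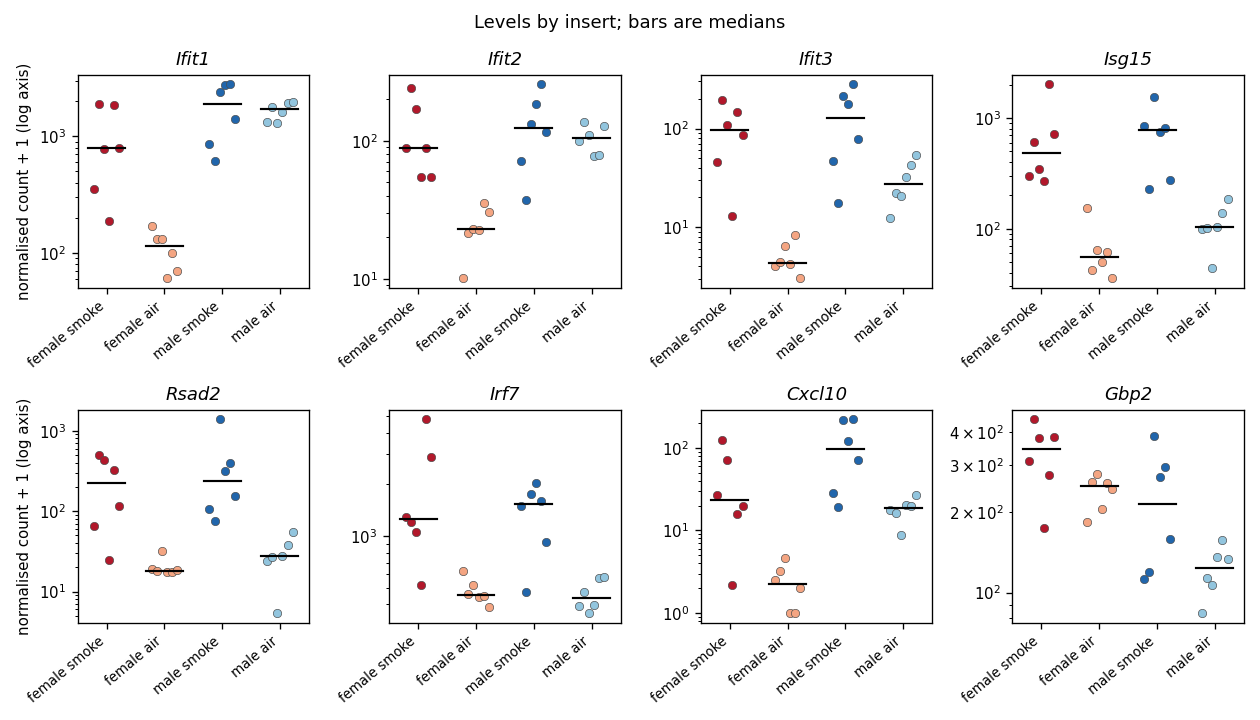
Normalised count plus 1 (log axis) of 8 members in each insert, with a bar at the group median, for female smoke, female air, male smoke and male air. The 6 female air inserts of Ifit1, Ifit2, Ifit3 and Cxcl10 lie below all male air inserts, and for Gbp2 they lie above them.

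In air, the sexes differed in a small part of the list. Female air cells had lower levels of 6 members than male air cells and a higher level of 1, Gbp2. Of all tested genes 19.0% were lower and 20% higher (39.0% in either direction), so the members' shares were not above the background. The 6 were Ifit1, Ifit2, Ifit3, Bst2, Eif2ak2 and Cxcl10. The members' median difference was -0.26, against 0.019 for all tested genes, and 25 values were negative. At an unadjusted p under 0.05 there were 9, a threshold that at least 39.0% of all genes passed. Groups did not overlap for 4 lower members, Ifit1, Ifit2, Ifit3 and Cxcl10, and for 2 higher ones, Gbp2 and Lgals3bp, where 16.7% and 16.6% of all genes did so. In inserts 1 to 3 alone 4 members passed, where 21.1% of all genes did, and in inserts 4 to 6 alone 6 passed, where 33.6% did.

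Ifit1 differed most. This protein binds viral RNA that lacks the methyl mark of the host's own messages. Female air inserts had 59.9, 115 and 169, against 1302, 1702 and 1982 in male air inserts, so the groups lay far apart. The log2 difference was -3.98 ± 0.47 (limma adjusted p = 4.23e-07). Ifit2, a relative that also binds viral RNA, had 9.13, 21.8 and 34.3 in female air, against 76.5, 104 and 135 in male air, a difference of -2.20 ± 0.41 (limma adjusted p = 1.77e-04). Ifit3 stood at 2.04, 3.34 and 7.41 in female air, below all male air inserts at 11.4, 26.5 and 53.3, with -2.52 ± 0.62 (limma adjusted p = 0.00262). Cxcl10 gave -3.06 ± 0.74 (limma adjusted p = 0.00219), with female air inserts between 0 and 3.64 and male air inserts between 7.73 and 25.6.

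Eif2ak2 was lower in female air by a smaller amount, -0.51 ± 0.17 (limma adjusted p = 0.0166), and its groups overlapped. Bst2 had 238, 293 and 1330 in female air, against 686, 810 and 966 in male air, where female air insert 1 lay above all male inserts and the other 5 below. Its difference of -1.18 ± 0.38 (limma adjusted p = 0.0171) was -1.56 without that insert. Gbp2 had 183, 250 and 276 in female air, above all male air inserts at 82.9, 123 and 157, a difference of 0.97 ± 0.27 (limma adjusted p = 0.00621). Besides Gbp2, 8 members had positive values that did not pass, namely Zbp1 (0.29), Irf7 (0.07), Usp18 (0.29), Ifi35 (0.01), Ifi27 (0.17), Dtx3l (0.02), Gbp3 (0.53) and Lgals3bp (0.80). In air 12 members' values that did not pass changed sign in at least 1 alternative without passing there, at up to 0.561 in size.

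**Figure D5:**
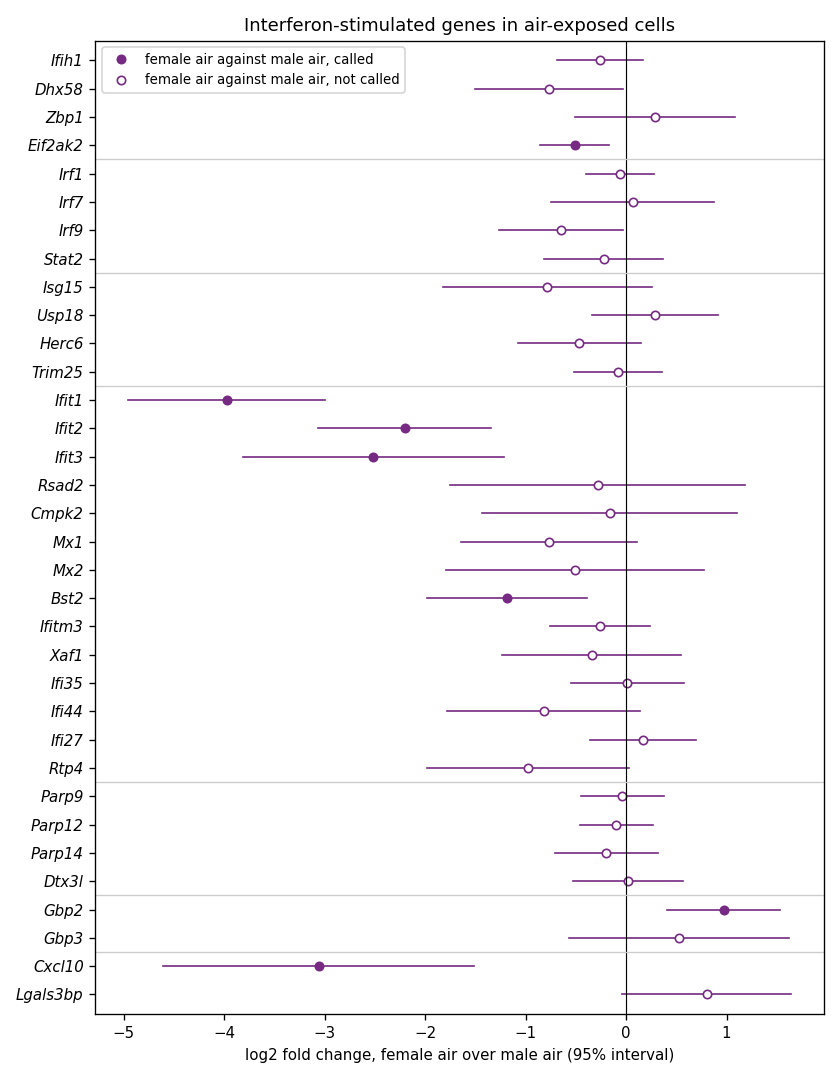
Log2 fold change of female air over male air for each member with its 95% interval, and filled points where the adjusted p was under 0.05. The 6 filled points left of 0 are Eif2ak2, Ifit1, Ifit2, Ifit3, Bst2 and Cxcl10, and the 1 right of 0 is Gbp2.

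The difference between the 2 smoke responses, female minus male, passed for 1 member, Ifit1, where 1.03% of all tested genes passed, 0.694% with a higher and 0.340% with a lower female response. Female smoke inserts had 187, 786 and 1894 counts of Ifit1, all above the female air inserts at 59.9, 115 and 169. Male smoke inserts had 608, 1903 and 2778, spread to both sides of the male air inserts at 1302, 1702 and 1982. Male smoke inserts 1 and 2 lay below every male air insert, and inserts 3, 4 and 5 above every one. The female change was 2.80 ± 0.47 (limma adjusted p = 1.61e-04) and the male one -0.08 ± 0.47 (adjusted p = 0.917), so their difference was 2.89 ± 0.66 (adjusted p = 0.0340). Leaving out 1 library ended this call in 13 of 24 fits, with adjusted p up to 0.0687, and without male smoke inserts 1 and 2, a choice made after seeing the data, the difference was 2.34 (adjusted p = 0.1095). In limma's fits of inserts 1 to 3 alone and of inserts 4 to 6 alone 0 members passed, where 0.295% and 4.70% of all genes did, and 5 members and 1 had an unadjusted p under 0.05. No other tool was run on these subsets. With separate means for the 2 sets, Ifit1 (2.89, limma adjusted p = 0.01495) and Ifit2 (2.04, adjusted p = 0.0125) passed, where 4.21% of all genes did. The air inserts of both sexes enter both the difference of the responses and the comparison in air.

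Ifit2 and Ifit3 had differences of 2.04 ± 0.58 (limma adjusted p = 0.0912) and 2.16 ± 0.88 (adjusted p = 0.275), which did not pass. Together with Ifit1 they were the 3 members with an unadjusted p under 0.05. The share of all genes at that threshold is not given here for the difference. The median difference over the members was 0.13, against -0.003 for all tested genes, with 22 positive and 12 negative values. The 12 negative ones, none of which passed, were Stat2, Usp18, Rsad2, Cmpk2, Bst2, Ifitm3, Xaf1, Ifi35, Ifi27, Gbp2, Gbp3 and Lgals3bp. These signs were not firm. The differences of 20 members that did not pass changed sign in at least 1 alternative without passing there, at up to 0.982 in size. For most members the intervals were wide. That of Isg15 ran from -0.85 to 2.08 on the log2 scale and that of Irf7 from -0.93 to 1.36.

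The Ifit genes sit side by side on chromosome 19, and the neighbours did not share one pattern. Between the start of Ifit2 at 34550694 and the end of Ifit1 at 34650009 (mm10) the deposited annotation lists 6 Ifit genes. Ifit3b, whose transcript is 97.8% identical to that of Ifit3 over 1700 bases, rose in both sexes, by 3.48 in female cells (limma adjusted p = 1.01e-05) and 2.51 in male cells (adjusted p = 3.12e-04). In air it had medians of 28.3 in female and 25.9 in male cells, a difference of 0.06 (adjusted p = 0.931). How the counting shared reads between Ifit3 and Ifit3b is not given in the sources used here, so the level of each is uncertain.

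Ifit1bl1, a relative of Ifit1, was higher in female air cells, with 138, 184 and 243 in female air against 22.1, 40.9 and 65.2 in male air, a difference of 2.22 (limma adjusted p = 2.56e-04). It rose under smoke in both sexes, by 3.73 in female cells and 2.19 in male cells. Ifit1bl2 went the other way in air, with medians of 6.33 in female and 102 in male cells (-3.45, limma adjusted p = 1.45e-05). It rose in female cells by 1.48 and had a male change of -0.39 that did not pass. Thus Ifit1, Ifit2, Ifit3 and Ifit1bl2 were lower in female air, Ifit1bl1 was higher, and Ifit3b did not pass. These neighbours were looked at after the values of Ifit1 had been seen.

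Counted by promoter, 8 of the 12 members with an ISRE match and 9 of the 13 without one rose in female cells. In male cells it was 8 of 12 and 3 of 13. Of all tested genes 15.5% rose in female cells and 9.76% in male cells. Without a match, Herc6 and Ifi44 just missed the male threshold (limma adjusted p = 0.0502 and 0.0533). With one, Gbp2 and Ifit3 just passed it (limma adjusted p = 0.0486 and 0.0443). The 2 sets were not compared by a test. Of the members lower in female air, 5 had a match and 1 did not, and the remaining 9 of the 34 had no listed promoter. Positions on the genome were spread over 14 chromosomes, with 6 members each on chromosomes 11 and 16. Per kilobase of transcript the levels spanned a wide range. In female smoke the highest mean was that of Ifitm3, at 12650 ± 2142 normalised counts per kilobase (SD, n = 6), and the lowest that of Ifit2, at 29.2 ± 18.6. Some members share exon bases with a neighbour, so their reads cannot be fully told apart: Parp9 and Dtx3l on opposite strands over 334 bases, Stat2 with Apof over 220, and Ifi27 with Ifi27l2a over 103. Mx1 and Mx2 are 94.8% identical over 920 bases.

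The rest of the pathway was read from lists of ligands, receptors, kinases and sensors. The 11 interferon ligands had no member above the testing level. Their summed normalised count per library was 0 to 10.4 in female smoke, 0 to 7.28 in female air, 2.22 to 8.90 in male smoke and 0 to 3.94 in male air. Ifnb1, the first interferon that most cells make, had 7 reads over the 6 female smoke inserts and 2 over the female air inserts. In male cells it had 8 reads over the 5 smoke inserts with recovered reads and 3 over the 6 air inserts. A difference between smoke and air was not detectable for these genes at this depth.

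All 6 receptor genes were tested. Ifngr2, a subunit of the interferon-gamma receptor, rose by 0.76 in female and 0.74 in male cells, the only receptor to rise in female cells. In male cells Ifngr1 also rose by 0.52, and Il10rb, a subunit of the interferon-lambda receptor, fell by 0.41. In air, 4 were lower in female cells, namely Ifnar1 (-0.56) and Ifnar2 (-1.07), the type I receptor, and Ifnlr1 (-0.82) and Il10rb (-1.07), the lambda receptor. Ifngr1 was higher at 0.58.

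Among the kinases, STATs and feedback genes, Socs3, an inhibitor of Janus kinases, rose by 0.84 in female cells, while Jak2 fell by 0.54. In male cells Stat3 fell by 0.68. Among 16 tested genes of nucleic acid sensing, 8 rose and 1 fell in female cells, and 4 rose and 2 fell in male cells. The DNA sensors Aim2 (1.86 in female and 1.16 in male cells) and Cgas (1.15 and 0.77) rose in both, as did the RNA sensor Tlr3 (0.54 and 0.46) and the RNA editor Adar (0.56 and 0.51). Irf8, a factor best known from myeloid cells, fell in both, by 2.09 in female and 2.27 in male cells. In air, Aim2 (-2.89), the DNA pathway adaptor Sting1 (-1.99), Tlr3 (-1.23) and Ddx58 (-0.66), the sensor RIG-I, were lower in female cells, where 7 of the 16 were lower and 2 higher.

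The genes most like the members were found by Pearson correlation of log2 values with the members' mean over all 24 libraries. Among the closest were Irgm1 (r = 0.963), Oasl2 (0.932), Apol9b (0.925), Apol9a (0.923), Phf11d (0.919), Oas3 (0.919) and Adar (0.902). The libraries share the smoke groups and their scaling, and no test is attached. Of these, Oas3, which makes the signal for RNase L, had changes of 3.64 in female and 2.20 in male cells.

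Levels of several cell type markers moved with smoke. Ciliated cell markers fell in female cells (5 of 5), with summed counts of 101 to 9304 in smoke, against 8592 to 16980 in air. In male cells none of the 5 passed, with 243 to 3576 in smoke and 2956 to 5495 in air. Club cell markers fell for 3 of 4 in female cells and 2 of 4 in male cells, with sums of 25324 to 102174 in female smoke, 115011 to 188019 in female air, 48454 to 126275 in male smoke and 217465 to 310585 in male air. Basal cell markers had 1 of 5 higher and 1 lower in female cells, and 2 higher and 2 lower in male cells. Their sums were 184558 to 354919 in female smoke, above every female air insert at 120583 to 169292. In male cells they were 77577 to 150070 in smoke and 63347.5 to 81446 in air. The fibroblast gene Dcn fell in both sexes, with a summed count of 6 fibroblast markers of 10.3 to 88.6 in female smoke, 144 to 469.6 in female air, 8.88 to 30.5 in male smoke and 83.2 to 342 in male air. The 5 endothelial markers summed to 63.5 or less in every library. Bulk libraries cannot tell fewer cells of a type from less RNA per cell, and the part of these shifts in the members' changes was not tested.

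Epithelial markers (5 of 5) were abundant in every group, at summed counts of 55396 or more. Of 13 leukocyte markers, 10 to 12 had any reads in a group, and their sum ran from 5284 to 42347 in female smoke, 34125 to 131357 in female air, 5782 to 44354 in male smoke and 30329 to 40536 in male air. Most of it was Lyz2, which airway epithelium also makes, with medians of 20453, 59288, 27049.5 and 33437.5 in the same order. The defining gene Ptprc averaged 1.49, 2.18, 3.63 and 2.57 counts in female smoke, female air, male smoke and male air, Tyrobp was at 0 in every library, and Adgre1 and Siglech had 1 read each, in male smoke. Of the 13, 5 were tested. Cd68, a lysosomal protein of macrophages, rose in both sexes, by 0.77 in female cells (limma adjusted p = 0.0159) and 1.53 in male cells (adjusted p = 1.06e-04). Its counts were 115 to 343 in female smoke, 89.8 to 171 in female air, 245 to 460.3 in male smoke and 72.5 to 188 in male air. Itgam, an integrin of myeloid cells, rose in male cells by 2.61 (limma adjusted p = 1.93e-04), with 85.6 to 436 in male smoke and 12.9 to 60.7 in male air. In female cells it ran from 1016.5 to 3662.5 in smoke and from 394 to 1653.4 in air, a change of 0.87 that did not pass (limma adjusted p = 0.124). Lyz2 and Csf1r fell in female cells, by 1.83 and 1.67. Itgam and Laptm5 were far higher in female air than in male air, by 5.28 and 6.54 (limma adjusted p = 1.36e-09 and 4.31e-10). The part of these markers in the members' changes under smoke and in the difference between the air groups was not tested.

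The authors' deposited table for female cells has 23 members higher under smoke and none lower, where 11.9% of its genes were higher and 15.4% lower, and all 23 are among the 25 called here. The authors' deposited table for male cells has 29 higher and none lower, where 21.9% of its genes were higher and 20.1% lower, and it holds all 17 called here. In the authors' deposited table for air, 2 members were higher and 9 lower in female cells, where 20.7% of its genes were higher and 15.9% lower. These include 6 of the 7 called here. The other is Bst2, at -0.822 in the authors' deposited table (adjusted p = 0.0788). Ifit1 stands at 0.12 for male smoke in the authors' deposited table (adjusted p = 0.762) and at -3.85 for female over male air (adjusted p = 2.48e-60), with signs turned here to run smoke over air and female over male.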

How the data were processed

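Bulk RNA of 24 inserts was sequenced on a NovaSeq from NEBNext Ultra II libraries, per the labels. Among the tools, the submitters' processing notes list DESeq2, HTSeq, Trimmomatic 0.38.0 and FastQC 0.11.9, and as builds GRCm38 and mm10. No aligner or strandedness was found, so both count as not given in the sources used here. The deposited values are a signal, counts the authors had normalised with DESeq2. In 23 libraries whole reads were recovered from them (100% of values within 0.001 reads; 16038813 to 24485024 reads per library); male smoke insert 5 was left out of tests that need them. Per the file headers, the authors' deposited tables give log2 fold changes with standard errors, p-values and adjusted p-values, and gene positions on mm10. The authors' log2 fold changes run air over smoke and male over female; their sign is turned in the text.

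Genes with a mean of at least 10 were kept (13549 of 25239). Log2 of the count plus 1 was fitted in limma 3.58.1 (R 4.3.3) with 1 term per group over 24 libraries, eBayes with a trend, and 20 residual degrees of freedom. All tests were two-sided. Alternatives used edgeR 4.0.16 and DESeq2 1.42.0 on recovered reads, other scalings, filters, pseudocounts, weights, blocks and subsets. Intervals cover the spread between inserts. Lengths and exon overlaps come from the deposited mm10 annotation, and near copies from GENCODE mouse transcripts (at least 90% identity over 250 bases).

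Named genes are, per role, the 2 members with the largest change among those called, all called in air or in the difference, those against the majority direction, up to 6 called genes per pathway list, and genes among the 8 most like the members; 1 gene that this rule names is not reported here. The members and lists were chosen with earlier results of these data known. Insert numbers were not taken to pair the libraries.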

Additional observations from a re-analysis of the deposited data

Results flagged for a closer look

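In 15 of 136 sets of 6 inserts (34 members in 4 groups) 1 insert stood apart from the others of its group by Dixon's test. Chance alone gives about 1 in 20 for independent sets. These sets share libraries and the members correlate within groups, so that rate is no benchmark here. Female air insert 1 accounted for 7 of the 15. It was high for Isg15 (153.7, next 63.67), Bst2 (1329.7, next 308.6), Ifitm3 (19743.3, next 7074.6), Ifi35 (2747.7, next 672.2) and Ifi27 (3631.6, next 1113.4), and low for Trim25 (922, next 2055) and Parp9 (975.2, next 1295.8). The 5 high genes are among the shortest members, and that library is the one with the steepest trend with transcript length. Its part in these values was not tested beyond leaving it out.

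Female smoke insert 5 was high for Isg15 (2017.2, next 722.8), Bst2 (1575.7, next 775.6) and Ifi44 (1914.6, next 637.8). Male smoke insert 3 was high for Rsad2 (1384.1, next 399.4) and Bst2 (3727.7, next 1702.5). Female smoke insert 4 was low for Dtx3l (851.1, next 2073.6). Female air insert 3 was high for Rsad2 (30.93, next 18.26) and female air insert 5 for Ifi44 (628, next 223.1).

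The smoke response of Ifit1 differed between the sexes by 2.886 on the log2 scale, female minus male, by limma's test of the difference (adjusted p = 0.0340).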

How the results depend on the processing

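Under all alternatives run, no member fell under smoke in either sex. Leaving out 1 library gave 18 to 27 members called in female cells, 11 to 23 in male cells, 7 to 10 in air and 0 to 1 for the difference of the responses. Of all genes 30.6% to 46.1%, 15.6% to 33.9%, 34.6% to 44.8% and 0.554% to 3.18% passed in those fits. With inserts 1 to 3 alone the counts were 10, 11, 4 and 0, and with inserts 4 to 6 alone 15 in female cells, 2 in male cells and 0 for the difference; fewer libraries entered those fits. Array quality weights gave 30 in male cells, 19 in air and 5 for the difference, where 49.3%, 70.0% and 17.9% of all genes passed. Only the groups compared gave 26 in male cells and 11 in air, where 45.4% and 42.0% passed. In female cells the calls of Dhx58, Zbp1, Usp18, Ifi44, Parp14 and Dtx3l were lost in that fit, where 21.1% of all genes passed. Leaving out female air insert 1 and female smoke insert 4, whose values followed transcript length, gave 27 in male cells, 11 in air and 2 for the difference (Ifit1 and Ifit2), where 47.2%, 55.8% and 6.20% passed. Quantile scaling gave 11 in air and 2 for the difference, where 42.6% and 1.56% passed. DESeq2 gave 3 for the difference, where 3.73% passed, and dropping male smoke inserts 1 and 2, chosen after seeing the data, gave 0. Separate means for inserts 1 to 3 and 4 to 6 in each group, also chosen after seeing the data, gave 26, 19, 7 and 2. Of all genes 40.1%, 28.2%, 44.0% and 4.21% passed there. The causes of these shifts were not tested. edgeR gave 26, 17, 6 and 1 members, and DESeq2 27, 20 and 7 in the first 3 comparisons. Of all genes 34.5%, 22.8%, 41.1% and 1.16% passed in edgeR, and 38.3%, 27.9% and 44.2% in DESeq2.

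The median difference of the responses, 0.13, turned to -0.056 without female smoke insert 5, -0.021 without male smoke insert 2 and -0.083 without male smoke inserts 1 and 2, and its highest value without 1 library was 0.472. In air, Ifi35 turned to -0.362 with quality weights, -0.350 both without female air insert 1 and when female smoke insert 4 was dropped as well, and Ifi27 to -0.262 with quality weights; without 1 library Ifi35 ran up to 0.108. Among the called members, those whose call in female cells was lost in some of the 24 fits without 1 library were Zbp1 (2), Parp9 (2), Usp18 (3), Ifi44 (3), Gbp3 (6), Parp14 (7) and Dtx3l (15), and in male cells Ifi27 (5), Zbp1 (8), Gbp3 (8), Cxcl10 (9), Ifit3 (13) and Gbp2 (17). Female smoke insert 5 was among the deciding libraries for all 7 in female cells. Over the alternatives, 5202 values of single members kept their side of the threshold, 140 came to pass and 192 ceased to.

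The insert number as a replicate block gave 25, 17, 7 and 1 members called, and in male cells 15 of the 17 were kept. Of all genes 33.5%, 20.7%, 38.4% and 0.827% passed there. Same-numbered inserts of different groups correlated between -0.242 and 0.367, over 0.1 in 14 of 36 pairs, and 5 of 36 correlated best with their own number, so the numbers were not taken to pair the libraries. Depth limits the interferon ligands and Cxcl10 in female air, where counts were near 0.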
